A study of Mus musculus with 4 samples.

Results

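The genes described here are the 10 genes at the centre of 2 transcriptional systems that read mechanical tension and the actin cytoskeleton: Srf, Yap1, Wwtr1, Tead1, Tead2, Tead3, Tead4, Ankrd1, Ctgf and Cyr61. They were chosen by name, and every array feature annotated to them under a current or an older symbol was taken. Ctgf is now named Ccn2 and Cyr61 is now named Ccn1, and the newer names are used below. The 10 genes had 14 features, out of 45018 features on the array and 19087 genes with a singly named feature. All 10 had a value on every array and were among the 14222 genes tested.

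SRF is a transcription factor that binds CArG boxes and acts with either of 2 kinds of cofactor. Myocardin-related factors (MRTF) carry the state of the actin cytoskeleton to SRF and drive cytoskeletal genes, and ternary complex factors (TCF, the ETS proteins Elk1, Elk3 and Elk4) carry growth factor signals and drive immediate-early genes. YAP (Yap1) and its paralog TAZ (Wwtr1) are coactivators that the Hippo kinases hold out of the nucleus, and that reach their targets by binding the TEAD factors. Ankrd1, Ccn1 and Ccn2 are textbook YAP/TEAD targets in fibroblasts, which spread and pull on stiff culture plastic, and serum activates both systems.

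Each of the 4 two-colour arrays compared RNA of Mll1-/- mouse embryonic fibroblasts directly with RNA of wild-type fibroblasts. The labels call both a cell line, and both were grown in DMEM with 10% FBS. The Mll1-/- RNA was labelled with Cy5 on arrays 1 and 3 and with Cy3 on arrays 2 and 4. The labels give neither the age of the embryos, nor how many lines or cultures were used, nor which part of Mll1 was removed. Genotype and cell line therefore cannot be told apart. The p-values cover the array-to-array spread alone, and this may be technical. Each value below is a log2 ratio, a difference between the genotypes and not a level, so members cannot be ranked by abundance.

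The ratios are read as Mll1-/- over wild type, a direction that is likely but not stated: it rests on the order of the genotypes in the sample titles and on the targeted gene. Kmt2a, the current name of Mll1, stood at −1.61, −1.58, −1.01 and −0.78 on arrays 1 to 4 (mean −1.24 ± 0.42, SD, n = 4). Between 31603 and 37425 features had a value per array. Of 10 fibroblast markers 8 were tested, and 3 were higher and 4 lower, with Dcn (decorin, −2.21 ± 0.85) and Pdgfra (−2.03 ± 0.24) the lowest and S100a4 (1.04 ± 0.29) and Vim (0.57 ± 0.13) the highest of those that passed. The shares of all genes tested, to set beside these marker counts, were 29.1% higher and 30.1% lower. Of the markers of other cell types, those of smooth muscle moved most: 5 of 7 were higher and 1, Des, lower. Their median lay between 2.22 and 2.45 on the 4 arrays. Myh11 gave 0.39, −0.22, 0.19 and 0.69 and did not pass (limma adjusted p = 0.292). Of 5 tested epithelial markers 0 were higher and 1 was lower (Krt5, −0.42 ± 0.04). Of 4 endothelial markers 1 was higher (Kdr, 1.10 ± 0.20) and 2 were lower (Vwf, −1.38 ± 0.25, and Cdh5). Cdh5 gave 0.42, −1.35, 0.46 and −1.09, so that its sign followed the dye, and with no dye term 1 endothelial marker was lower. Of 3 macrophage and blood markers 1 was higher (Lyz2, 2.27 ± 0.32) and 1 lower (Cd14, −3.78 ± 0.12). Of 7 skeletal and cardiac muscle markers 2 were higher (Tnnt2, 3.19 ± 0.29, and Tnnt3, 0.93 ± 0.60) and 2 lower (Myog, −0.79 ± 0.30, and Des, −0.31 ± 0.26). Several of these marker calls depended on single arrays or settings. Tnnt3 no longer passed without array 2 (adjusted p = 0.123) or 4 (0.0976), and Dcn no longer passed without array 4 (0.0634). Myog was lost without array 3 (0.0505) and with its middle feature (0.144) or that of smallest spread (0.107), and Des was lost in 6 of 16 alternatives (highest 0.0757). The part of these markers in the results below was not tested, and a change in the number of cells of a type cannot be told apart from a change in RNA per cell.

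Of the 10 genes, 8 rose in Mll1-/- fibroblasts, none fell, and 2, Srf and Tead3, did not pass the test (limma across all genes with a dye term, Benjamini-Hochberg adjusted p under 0.05). Across all genes tested, 29.1% were higher, 30.1% lower and 59.2% either. The median log2 ratio of the 10 genes was 0.68, against −0.0007 for all genes tested. At least 2-fold rises were seen in 4 of the 10, namely Ankrd1, Ccn2, Tead4 and Ccn1, against 6.3% of all genes, and 8.06% of all genes fell by that much. The same 8 genes had ratios above 0 on every array, which 32.9% of all genes had, and 0 of the 10 lay below 0 on every array, against 33.7% of all genes. Every array gave the set a similar median, from 0.63 to 0.79. With each gene taken relative to the median of its chromosome, a setting added after the data were seen, 5 of the 10 passed: Ankrd1, Ccn2, Ccn1, Tead1 and Tead4. In that setting 28.2% of all genes were higher.

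**Figure D1:**
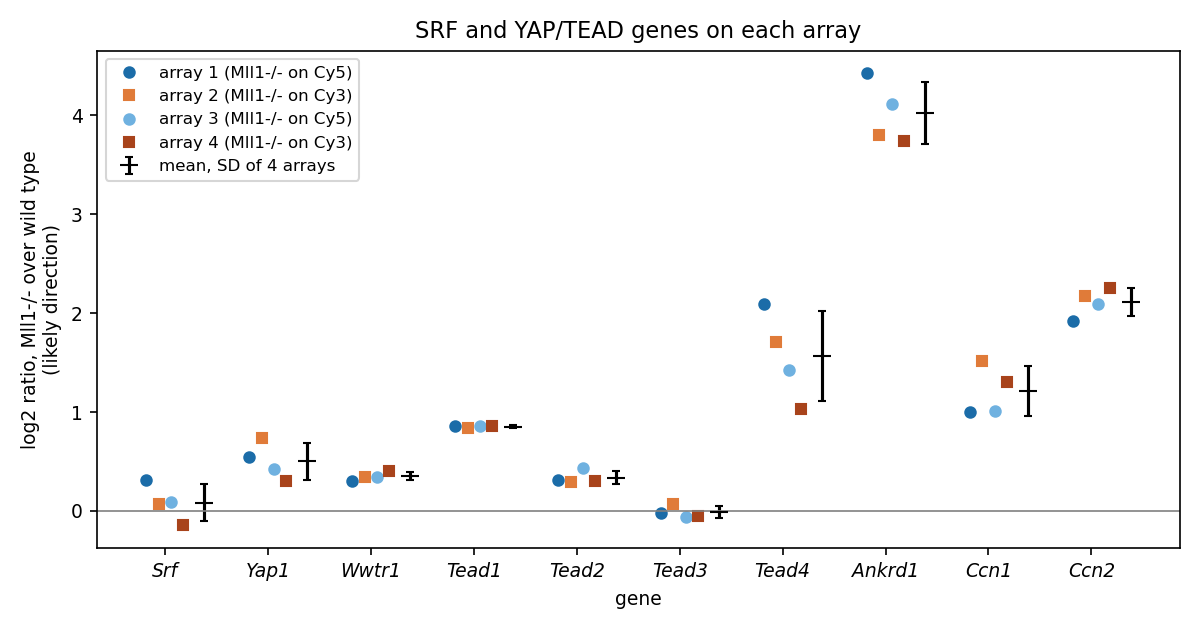
Log2 ratio (y axis, Mll1-/- over wild type in the likely direction) of the 10 genes (x axis) on each of the 4 arrays, circles where Mll1-/- RNA carried Cy5 and squares where it carried Cy3. Black marks give the mean and SD of the 4 arrays. Ankrd1 stands between 3.75 and 4.43, well above the rest, and the points of Srf and Tead3 lie on both sides of 0.

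The 3 target genes and Tead4 had the 4 highest ratios of the 10. Ankrd1 encodes an ankyrin repeat protein of the nucleus and of the muscle sarcomere that is induced by stretch. Its log2 ratios were 4.43, 3.80, 4.12 and 3.75 on arrays 1 to 4. All lay far above 0, those with Cy5 on the mutant somewhat higher than those with Cy3, and the mean of 4.02 ± 0.32 (SD, n = 4) is a 16.3-fold rise (limma adjusted p = 0.000426), the 47th largest ratio of the 14222 genes.

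Ccn2 encodes connective tissue growth factor, a secreted matricellular protein. It gave 1.92, 2.17, 2.09 and 2.25, an even rise of 4.32-fold (2.11 ± 0.14, limma adjusted p = 0.000573). Ccn1, a secreted integrin ligand of the same family, gave 0.997, 1.52, 1.01 and 1.31. Its ratios were lower with Cy5 on the mutant (mean 1.01) than with Cy3 (mean 1.41), and positive throughout, for a 2.31-fold rise (1.21 ± 0.25, limma adjusted p = 0.00131). The calls of these 3 genes held in every alternative tried.

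The promoter windows of Ankrd1 and Ccn1, the target genes with a window, were chosen because both genes rose and both windows hold the TEAD motif. Yap1 and Wwtr1 also rose and had the motif, and their windows are not shown. They are the 250 bases before the RefSeq start (build GRCm38.p6, minus strand, read 5′ to 3′), Ankrd1 at chr19:36119845-36120094 and Ccn1 at chr3:145649986-145650235. Capitals mark GGAATG or, where the motif lies on the other strand, CATTCC.
Ankrd1: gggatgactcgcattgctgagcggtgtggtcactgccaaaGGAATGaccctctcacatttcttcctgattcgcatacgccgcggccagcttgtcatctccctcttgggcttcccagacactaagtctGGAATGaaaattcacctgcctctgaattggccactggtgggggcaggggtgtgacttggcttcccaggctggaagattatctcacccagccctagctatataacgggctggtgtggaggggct
Ccn1: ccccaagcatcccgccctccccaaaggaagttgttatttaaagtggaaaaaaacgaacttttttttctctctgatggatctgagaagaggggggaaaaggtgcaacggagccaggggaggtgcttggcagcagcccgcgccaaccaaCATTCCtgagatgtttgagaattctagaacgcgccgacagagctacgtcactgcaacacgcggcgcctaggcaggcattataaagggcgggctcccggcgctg

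In the Ankrd1 window the motif starts 210 and 123 bases before the start, and in the Ccn1 window 103 bases before it. At least 1 match was present in 12.6% of all 32851 promoter windows of this length, and at least 2 in 1.02%. Both motifs named here were searched on both strands. Of the 10 genes, all but Ccn2, Tead1 and Tead4 had a window in the table (7 genes, 10 windows), and 5 of these had the motif in at least 1 window: Ankrd1, Ccn1, Wwtr1, Yap1 and Tead3, the last of which did not pass the test. The 12.6% is a share of windows and the 5 a count of genes, some with several windows, so they cannot be compared directly. A match is a description of the letters and not evidence of binding.

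The TEAD factors are the DNA-binding partners of YAP and TAZ, and the 4 genes differed from one another. Tead4 gave 2.10, 1.71, 1.43 and 1.03, all above 0 but the most uneven of the 10 genes, and rose 2.96-fold (1.57 ± 0.45, limma adjusted p = 0.00744). Tead1 gave 0.86, 0.83, 0.86 and 0.85 and rose 1.81-fold (0.85 ± 0.01, limma adjusted p = 0.00118). Both calls held in every alternative tried.

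The close values of Tead1 come from averaging 3 features whose single SDs were 0.24, 0.31 and 0.24. One of them was higher with Cy5 on the mutant (mean 0.96, against 0.62 with Cy3), another with Cy3 (mean 0.58 with Cy5 and 1.07 with Cy3), and their dye differences offset each other. The 3 features agreed in the size of the rise, with means of 0.79, 0.83 and 0.94, each past the threshold by itself.

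Tead2 gave 0.32, 0.29, 0.43 and 0.30, a small rise of 1.26-fold (0.34 ± 0.06, limma adjusted p = 0.00791). Its 2 features, annotated to the same transcript, had means of 0.28 and 0.40, with dye differences in opposite directions. The call was lost without array 2, 3 or 4 (highest adjusted p = 0.0547), with arrays 1 and 2 and arrays 3 and 4 averaged (0.0521) and relative to the chromosome's median (0.18, adjusted p = 0.0584). Tead3 gave −0.02, 0.07, −0.06 and −0.05 and did not pass (−0.013 ± 0.061, 95% interval −0.14 to 0.12, limma adjusted p = 0.813). That interval leaves out a ratio of the size seen in Tead1, but it rests on 1 feature and covers array-to-array spread alone.

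**Figure D2:**
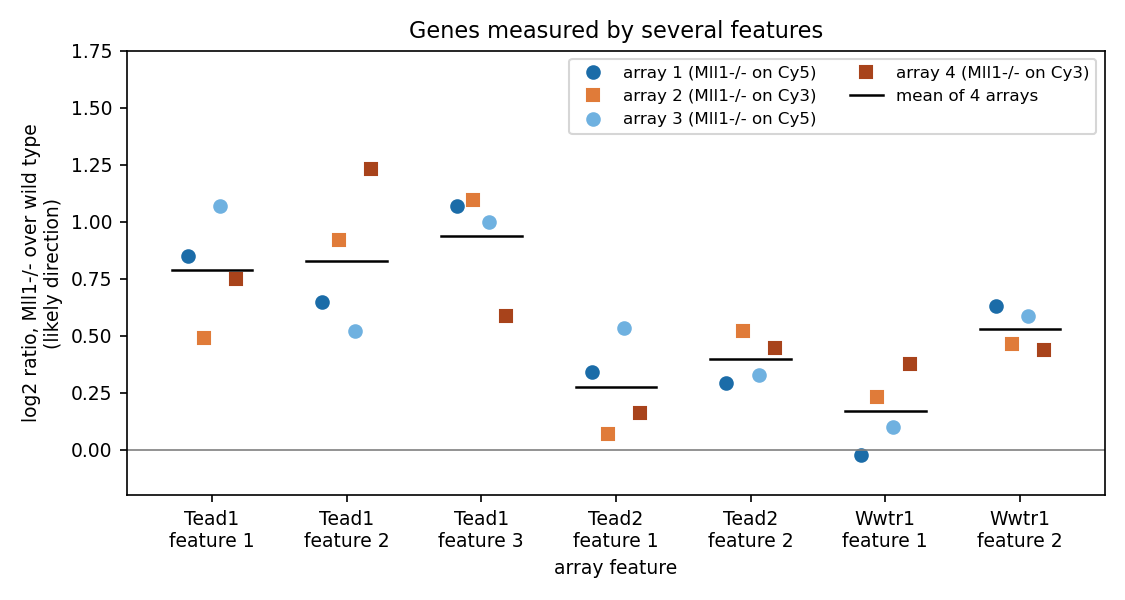
Log2 ratio (y axis, Mll1-/- over wild type in the likely direction) of each feature of Tead1, Tead2 and Wwtr1 (x axis) on the 4 arrays, with the mean as a black line. The 3 Tead1 features have means between 0.79 and 0.94, and the Wwtr1 features differ, at 0.17 and 0.53.

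The coactivators moved less than Tead1 and Tead4. Yap1 gave 0.54, 0.74, 0.43 and 0.30, above 0 on each array, and rose 1.42-fold (0.50 ± 0.19, limma adjusted p = 0.0204). The call was lost without array 1 (adjusted p = 0.0839) or 3 (0.0689) and relative to the median of chromosome 9 (0.28, adjusted p = 0.0848).

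Wwtr1 gave 0.30, 0.35, 0.34 and 0.41 and rose slightly, 1.27-fold (0.35 ± 0.04, limma adjusted p = 0.00586). Its 2 features carry the same transcript accession but differed. The higher one gave 0.63, 0.47, 0.59 and 0.44 and passed by itself (0.53 ± 0.09, limma adjusted p = 0.00261). The lower one gave −0.02, 0.23, 0.10 and 0.38 and did not pass (0.17 ± 0.17, limma adjusted p = 0.0606). Relative to the median of chromosome 3 Wwtr1 stood at 0.15 and did not pass (adjusted p = 0.0643).

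Srf itself gave 0.32, 0.08, 0.09 and −0.14, on both sides of 0, and did not pass (0.085 ± 0.19, 95% interval −0.12 to 0.29, limma adjusted p = 0.361). Its promoter window is shown because SRF is known to act on its own promoter through CArG boxes, which are in capitals (GRCm38.p6, chr17:46556163-46556412, minus strand).
Srf: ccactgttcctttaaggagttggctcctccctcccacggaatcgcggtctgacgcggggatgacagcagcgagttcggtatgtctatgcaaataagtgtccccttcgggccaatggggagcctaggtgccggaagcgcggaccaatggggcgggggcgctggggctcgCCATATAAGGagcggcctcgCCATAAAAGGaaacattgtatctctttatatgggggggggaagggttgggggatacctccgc
The boxes start 82 and 62 bases before the start of the gene. A CArG box was present in 1.47% of all windows, and at least 2 were present in 6 windows. None of the other 6 genes with a window had one.

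In order of log2 ratio the genes ran Ankrd1, Ccn2, Tead4, Ccn1, Tead1, Yap1, Wwtr1, Tead2, Srf and Tead3. Ankrd1 exceeded Ccn2 on all 4 arrays, by 1.91 ± 0.46. Ccn1 exceeded Tead1 on all arrays by 0.36 ± 0.26, and Tead1 exceeded Yap1 on all arrays by 0.35 ± 0.20. The other neighbours in this order changed places on at least 1 array, among them Ccn2 and Tead4 (0.54 ± 0.58), Tead4 and Ccn1 (0.36 ± 0.57) and Wwtr1 and Tead2 (0.01 ± 0.08).

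The surroundings of the genes on their chromosomes differed from one another, and were not tested against 0. The genes lie on chromosomes 3 (Wwtr1 and Ccn1), 6 (Tead4), 7 (Tead1 and Tead2), 9 (Yap1), 10 (Ccn2), 17 (Srf and Tead3) and 19 (Ankrd1). Over all tested genes the median log2 ratio was 0.23 on chromosome 9 and 0.20 on chromosome 3. It was 0.16 on chromosome 19, 0.15 on chromosome 7, −0.11 on chromosome 17 and −0.16 on chromosomes 6 and 10. Chromosomes that hold none of the 10 genes reached further: −0.70 on chromosome 14 (between −0.72 and −0.69 on the arrays) and 0.29 on chromosome 16. Genes of the lists below lie on both, such as Lats2 on 14 and Mrtfb, Vgll3 and Ccdc80 on 16. Around Wwtr1 the nearest 5 tested genes on each side had a median of 0.32, close to the 0.35 of Wwtr1, with 7 of 10 higher and 1 lower. Yap1 exceeded 9 of its 10 neighbours, of which 3 were higher and 3 lower (median −0.16). They include the apoptosis inhibitor genes Birc2 (−0.38 ± 0.25), which did not pass, and Birc3 (−1.97 ± 0.97), which was lower. Tead1, Tead2, Tead4 and Ankrd1 exceeded all 10 of theirs. The neighbours of Tead2 and Tead4 had medians of −0.01 and −0.04, and those of Srf and Tead3 had medians of −0.28 and −0.15. Around Ankrd1, 6 of 10 neighbours were higher and 1 lower (median 0.48), and around Tead1, 6 were higher and 2 lower (median 0.28). Ccn1 exceeded 9 of its 10 neighbours, of which 6 were higher and 1 lower (median 0.41). Ccn2 exceeded 8 of its 10 (median 0.01) and lay below Moxd1 (3.79) and Tmem200a (2.29).

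**Figure D3:**
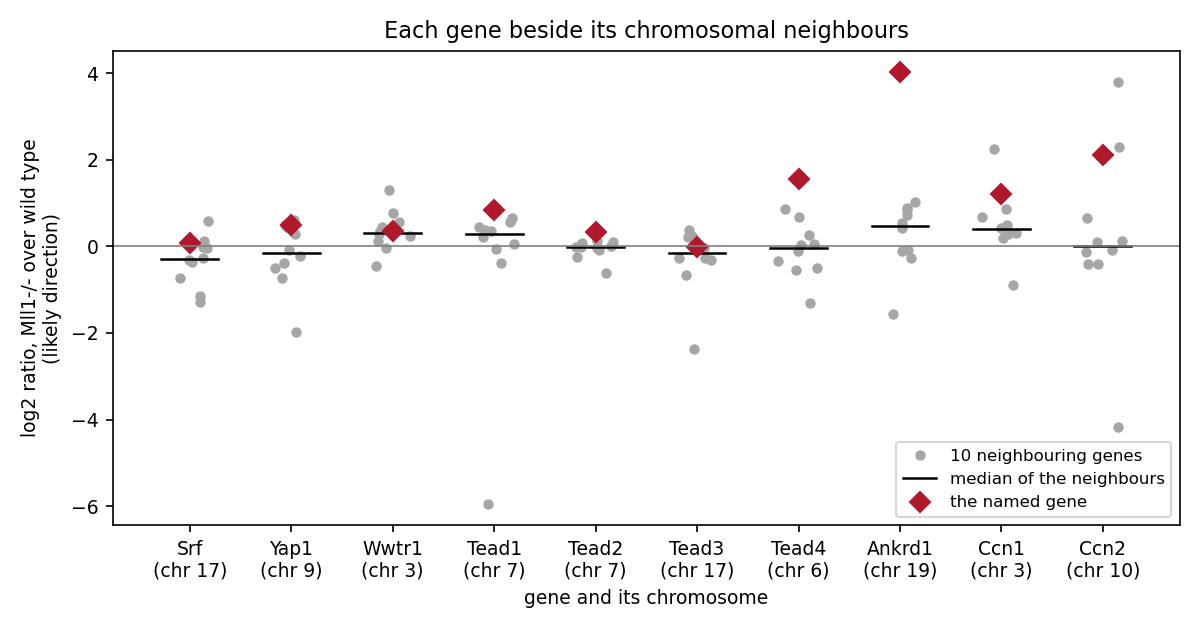
Log2 ratio (y axis, Mll1-/- over wild type in the likely direction) of each gene (red diamond) and of its 10 nearest tested genes in RefSeq order, 5 on each side (grey points, black line for their median), with gene and chromosome on the x axis. Ankrd1, at 4.02, stands far from its neighbours, whose highest ratio is 1.03, and Wwtr1 lies at their median.

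Other YAP/TEAD targets did not share a direction. Of 28 listed, 27 were tested, and 12 rose and 7 fell. These were 44.4% and 25.9% of those tested, against 29.1% and 30.1% of all genes. Their median log2 ratio was 0.12. Highest stood Tgm2, the cross-linking enzyme transglutaminase 2 (3.57 ± 0.15, 11.9-fold), Edn1, the peptide endothelin-1 (3.42 ± 0.68, 10.7-fold), and the receptor tyrosine kinase gene Axl (0.97 ± 0.09, 1.96-fold). The largest falls were those of the secreted matrix protein gene Ccdc80 (−3.84 ± 0.21, 14.4-fold), the RNA-binding protein gene Rbms3 (−1.52 ± 0.52) and the ligand gene Tgfb2 (−1.09 ± 0.30). The highest limma adjusted p of these 6 genes was 0.0147, that of Rbms3.

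Genes of the Hippo cascade, which restrains YAP and TAZ, gave rises and falls, as all genes did. Of 28 listed, 26 were tested, and 11 rose and 5 fell, 42.3% and 19.2% of those tested, against 29.1% and 30.1% of all genes. Their median was 0.10. Among the kinases and their scaffolds, Stk4 (the kinase MST1) gave 0.83, 0.90, 0.78 and 0.79 and rose 1.77-fold (limma adjusted p = 0.00162), while Sav1, the scaffold of that kinase, gave −0.79, −0.79, −0.67 and −0.53 and fell 1.62-fold (limma adjusted p = 0.00457). Upstream, Wwc1, the adaptor KIBRA, rose 3.48-fold (1.80 ± 0.05), and Fat4, an atypical cadherin, fell 4.44-fold (−2.15 ± 0.47). Limd1, a LIM protein that binds LATS kinases, rose (0.65 ± 0.15). Map4k4, a kinase that acts beside MST1, fell (−0.40 ± 0.13), a call lost in 5 of 16 alternatives, among them the gene's feature of smallest spread (−0.039, adjusted p = 0.397). The other falls were those of Taok2 (−0.22 ± 0.06) and Amot (−0.37 ± 0.45, not of 1 sign).

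Vestigial-like proteins compete with YAP for TEAD factors or act beside them. Vgll3 gave 0.44, 0.53, 0.56 and 0.65 and rose 1.46-fold (limma adjusted p = 0.00393). Vgll4, a TEAD repressor, gave −0.11, 0.51, −0.11 and 0.46, so that its sign followed the dye, and its call (0.18, adjusted p = 0.0229) was lost in the fit that leaves out dye (adjusted p = 0.330) and in each fit that left out an array (highest 0.134). Vgll1 and Vgll2 had a blank on at least 1 array and were not tested.

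Among SRF cofactors and their regulators, 9 genes were listed and 6 tested. Fhl2, a LIM protein that is both an SRF target and an SRF partner, gave 0.71, 1.17, 0.68 and 1.21 and rose 1.92-fold (limma adjusted p = 0.00107). The MRTF genes had ratios of opposite sign. Mrtfb gave 0.93, 0.97, 0.36 and 0.33 and rose 1.57-fold (limma adjusted p = 0.0430), and Mrtfa gave −0.62, −0.11, −0.50 and −0.05 and fell 1.25-fold (limma adjusted p = 0.0100). The Mrtfb call was lost in 8 of 16 alternatives. Among them were each fit that left out an array (highest adjusted p = 0.123) and the fit relative to the chromosome's median (0.36, adjusted p = 0.114). The Mrtfa call was lost in 7 of 16, among them the fit that leaves out dye (0.0806) and those without array 1, 2 or 4 (highest 0.0662). Relative to the chromosome's median Mrtfa stood at −0.11 and did not pass (adjusted p = 0.121). Scai, an inhibitor of MRTF, rose (0.47 ± 0.24, limma adjusted p = 0.0166), a call lost when array 1 (adjusted p = 0.0728) or 3 (0.0682) was left out and with its middle feature (0.23, adjusted p = 0.111). The TCF gene Elk3 fell slightly (−0.14 ± 0.14, limma adjusted p = 0.0431), a call lost in each fit that left out an array (highest adjusted p = 0.218), and Elk4 did not pass (0.32 ± 0.38, adjusted p = 0.181). Myocd (myocardin), Elk1 and Abra had blanks and were not tested.

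The lists of genes downstream of SRF were chosen with earlier results of these data known, so a difference between the branches was not tested. Of 32 cytoskeletal genes listed as SRF/MRTF targets, 31 were tested. Of these, 23 rose and 2 fell (74.2% and 6.45%), against 29.1% and 30.1% of all genes. At least 2-fold rises were seen in 14, against 6.3% of all genes, and the median was 0.94. The LIM protein gene Fhl1, the myosin light chain gene Myl9 and the calponin gene Cnn1 led, with ratios of 6.31 ± 0.34, 4.80 ± 0.20 and 4.29 ± 0.23. The falls were those of the integrin gene Itga1 (−0.91 ± 0.13, limma adjusted p = 0.00240) and of the villin gene Vil1 (−0.28 ± 0.25, not of 1 sign, limma adjusted p = 0.0488). The Itga1 call held in all 16 alternatives, and in 12 of them it was the only fall. Acta2, Cnn1, Tagln, Lmod1 and Myh11 of this list are also among the 7 smooth muscle markers given above. The count of rises stayed between 23 and 26 in every alternative.

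Immediate-early genes, the SRF/TCF targets, gave both rises and falls, and few genes of the list were tested. Of 13 listed, 10 were tested, and 2 rose and 4 fell, 20% and 40% of those tested, against 29.1% and 30.1% of all genes. Their median was −0.0095. Egr3, a relative of Egr1, and Egr4 had blanks and were not tested. One feature of Egr3 gave −7.06, −8.17 and −6.25 on arrays 1, 3 and 4, and another gave −0.87 and 1.42 on arrays 1 and 3. The feature of Egr4 gave 0.53, 2.09 and 0.65 on arrays 1, 2 and 4. Fos, an AP-1 subunit, gave −0.99, −1.54, −1.67 and −2.24 and fell 3.05-fold (limma adjusted p = 0.00721). Egr1, a zinc finger factor, gave −1.39, −1.59, −1.45 and −1.79 and fell 2.94-fold (limma adjusted p = 0.000955). The orphan receptor gene Nr4a1 fell (−0.47 ± 0.23), a call lost in each fit that left out an array (highest adjusted p = 0.121), and the AP-1 gene Junb fell (−0.32 ± 0.17). The rises were those of the phosphatase gene Dusp1 (0.66 ± 0.19, limma adjusted p = 0.00175) and of Fosb (0.32 ± 0.27, not of 1 sign). The calls of Fos, Egr1 and Dusp1 held in all 16 alternatives, and in each fit that left out an array 2 genes of the list fell, against 4 with all arrays.

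**Figure D4:**
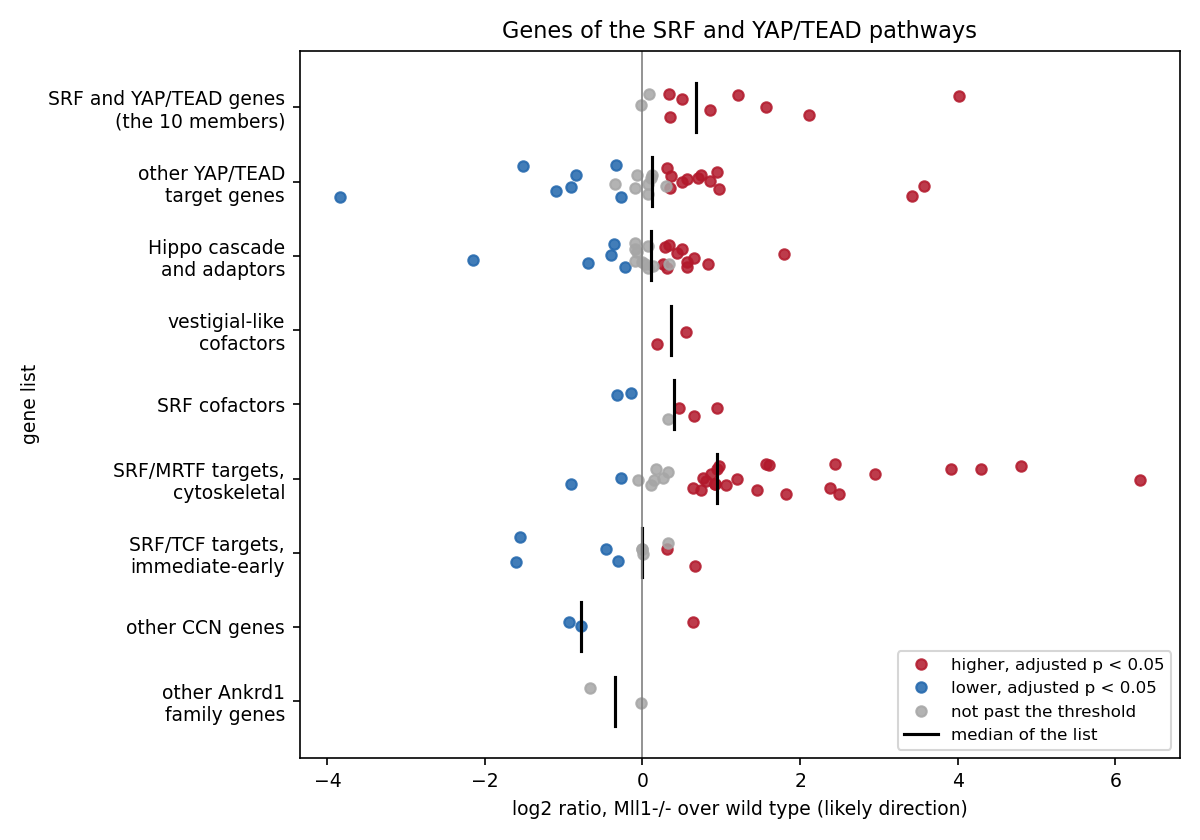
Log2 ratio (x axis, Mll1-/- over wild type in the likely direction) of every tested gene in each of the lists shown (y axis), red where higher, blue where lower and grey where not past an adjusted p of 0.05, with the list median in black. The cytoskeletal SRF/MRTF targets reach from −0.91 to 6.31 with a median of 0.94, and the immediate-early targets have a median of −0.0095.

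The relatives of the 3 target genes differed in direction. Among other CCN genes, Ccn3 gave −0.99, −0.92, −0.88 and −0.96 and fell 1.91-fold (limma adjusted p = 0.00128), and Ccn5 fell 1.71-fold (−0.78 ± 0.21, limma adjusted p = 0.00973). Ccn4 rose 1.56-fold (0.64 ± 0.12, limma adjusted p = 0.00440). Of the ankyrin repeat genes closest to Ankrd1, neither passed: Ankrd2 gave −0.93, −0.09, −0.50 and −1.13 (adjusted p = 0.0761), below 0 on every array, and Ankrd23 gave −0.23, −0.28, 0.15 and 0.26 (adjusted p = 0.890). Ankrd2 passed as lower in 5 of 16 alternatives, namely in the fit that leaves out dye (adjusted p = 0.0357), with arrays 1 and 2 and arrays 3 and 4 as a random block (0.0320) or averaged (0.0326), relative to its chromosome's median (0.0434) and without array 2 (0.0326).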

How the data were processed

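The deposited table holds 1 log2 ratio of the 2 channels per feature and array, made by the authors. Agilent Feature Extraction 10.1.1 is named in the submitters' processing notes. The labels state neither normalization, background correction, log base nor direction. The span of the values led to base 2. Ratios of dye-swapped arrays correlated positively (r from 0.72 to 0.78), so they had already been turned one way. Array medians were −0.01, 0.03, −0.02 and 0.02. No intensities were used here, so signal over background is unknown, and precision is set by having 4 arrays.

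Features were named through the platform annotation, which gives 33653 features 1 symbol, 56 several and 11309 none; 33517 matched a RefSeq gene table (GRCm38.p6) by gene ID. Features with several symbols or a blank on any array were left out. Features of 1 gene were averaged, giving 14222 genes from 24012 features. Genotype was tested with limma 3.58.1 (R 4.3.3; lmFit, eBayes) with a gene-specific dye term, with Benjamini-Hochberg adjustment over all genes. Errors are SDs over 4 arrays. The script was tested on simulated data. Promoter sequences and positions are from RefSeq (GRCm38.p6), and array features were not placed on a genome.

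The members and lists were chosen with earlier results of these data known. Named are the 10 members, Kmt2a, per list at most 3 called genes each way (2 for markers), by size of change, if of 1 sign on all arrays, and every tested gene of the vestigial-like, SRF cofactor, other CCN and other Ankrd1 family lists. Birc2, Birc3, Moxd1, Tmem200a, Taok2, Amot, Vil1, Junb, Fosb, Cdh5 and Egr3 fall outside this rule. So do genes named as untested or as shared by 2 lists. All of these were chosen after their values were seen. Some genes, such as Fhl2 and Lats2, stand in 2 lists. Alternatives are given at the end. The result of 1 further gene list is not reported here.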

Additional observations from a re-analysis of the deposited data

Results flagged for a closer look

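Among 63 genes examined, 2 had 1 array apart from the other 3 by Dixon's criterion, which chance alone gives in about 1 of 20 groups. For Tead2, array 3 gave 0.43, while the other 3 gave 0.29 to 0.32. For Itga1, array 3 gave −0.72, while the other 3 gave −0.99 to −0.97.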

How the results depend on the processing

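The 10 genes were tested in 16 alternatives each: of these 160 tests, 148 kept the direction and the side of the threshold, 10 lost the call and 2, both of Tead3, turned its sign (0.089 relative to the chromosome's median and, without 1 array, from −0.045 to 0.018, the sign turned without array 4). The calls of Ankrd1, Ccn1, Ccn2, Tead1 and Tead4 were kept in all 16. The count of members higher was 8, and between 6 and 7 without 1 array, where 17.8% to 20.1% of all genes were higher. Relative to chromosome medians it was 5, against 28.2% of all genes. There Yap1, Wwtr1 and Tead2 no longer passed, and the cause was not tested. Over all genes, 4140 were higher in the fit reported, 2690 with arrays 1 and 2 and arrays 3 and 4 averaged, 4758 with arrays 1 and 4 and arrays 2 and 3 averaged, the highest of the 16 alternatives, and between 2532 and 2860 without 1 array, where fewer arrays enter. Genes lower were 4275, 2923, 4914 and between 2879 and 3005 in the same fits. Kmt2a was alike on arrays 1 and 2 (−1.61 and −1.58) and on arrays 3 and 4 (−1.01 and −0.78), and so was Dcn (−1.45 and −1.52, then −3.06 and −2.82). The labels do not say whether these arrays share RNA, and the part of such pairs was not tested beyond these fits. Other turned signs were those of Ankrd23 (0.022 with the feature of smallest spread, 0.063 relative to its chromosome's median and, without 1 array, from −0.16 to 0.11, the sign turned without array 1 or 2) and Elk3 (0.030 relative to its chromosome's median). Counts in the lists moved by over 1.5 times as follows, from the lowest to the highest: Hippo genes 7 to 14 higher (11 reported) and 2 to 5 lower (5), vestigial-like genes 1 to 2 higher (2), SRF cofactors 1 to 3 higher (3) and 0 to 2 lower (2), cytoskeletal targets 1 to 2 lower (2), immediate-early genes 1 to 2 higher (2) and 2 to 5 lower (4), and other Ankrd1 family genes 0 to 1 lower (0). Among the marker lists they were fibroblast 2 to 4 lower (4), epithelium 0 to 2 higher (0), endothelium 1 to 2 lower (2), macrophage 1 to 2 higher (1), smooth muscle 0 to 1 lower (1), and skeletal and cardiac muscle 1 to 3 higher (2) and 0 to 2 lower (2). A random block of array pairs (1 with 2, 3 with 4) could not be fitted beside the dye term and was run without it, an alternative added after seeing the data, as was the one on chromosome medians. No value was exactly 0, so the filter on such values left out 0 genes.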
